A study of Homo sapiens with 18 samples.

Results

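The 9 enzymes of cholesterol synthesis described here, HMGCS1, MVK, MVD, IDI1, FDPS, FDFT1, SQLE, LSS and DHCR7, were taken by symbol from comparisons of GC7 with vehicle in DU145 cells. All 9 had a row among the 15747 genes of the table for cytoplasm and polysomes and among the 44682 genes of the whole-cell table. DU145 is a human line derived from a metastasis of prostate carcinoma that lacks the androgen receptor, kept in medium with serum. Cells received 40 µM GC7 for 24 h or vehicle alone. GC7 (N1-guanyl-1,7-diaminoheptane) blocks deoxyhypusine synthase, which starts the modification of the translation factor eIF5A by hypusine. The 18 libraries, 3 in each of 6 groups, hold RNA of whole cells, of cytoplasmic lysate freed of nuclei and mitochondria, or of heavy polysome fractions. Both treatments share the emetine that was given before harvest for the fractions. All results come from 1 cell line, and the labels do not say whether the 3 libraries of a group came from separate cultures, so the spread behind the p-values may be technical.

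Cholesterol is made from acetyl-CoA. HMGCS1 acts early in the pathway, and the kinases MVK and PMVK and the decarboxylase MVD turn mevalonate into an activated isoprene unit. IDI1 interconverts both forms of that unit, FDPS joins them into farnesyl diphosphate, and FDFT1, squalene synthase, commits the chain to sterols. SQLE, squalene epoxidase, oxidises squalene, LSS, lanosterol synthase, closes it into rings, and DHCR7 carries out a last reduction to cholesterol. The genes are known targets of SREBP2, a transcription factor held at the endoplasmic reticulum by INSIG and SCAP proteins when sterols are plentiful. Prostate carcinoma cells draw on the pathway for membranes and for prenyl groups.

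Values are those of the authors' comparisons, with no value per library, so library depth is unknown and an SD cannot be given. Neither table names its numerator. Here the category "UP" is taken to mean higher with GC7, and the whole-cell sign was turned because its values ran against both fractions as deposited (Pearson r across 14099 genes of -0.39 with cytoplasm and -0.45 with polysomes). On the opposite reading every direction below turns round. Fold changes of the fractions are shrunken toward 0 and are given as deposited unless called unshrunken. The epithelial keratins KRT8 and KRT18 had mean normalized counts of 32028 and 41006 in cytoplasm in the authors' deposited table, and the leukocyte gene PTPRC and the androgen receptor target KLK3 carried the whole-cell value shared by 18022 genes, read as genes without reads.

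The promoters are shown because 3 enzymes, MVK, IDI1 and LSS, were lower in both fractions, while FDPS, which lies between IDI1 and LSS in the pathway, passed the test in neither. Each sequence is the 250 bases before the start of the canonical transcript (GENCODE), from RefSeq (GRCh38.p14), read 5′ to 3′ on the strand of the gene. The RefSeq table gave a promoter at that start for 7 of the 9 enzymes. Other annotated transcripts can start further upstream, and 6 of the 7 windows held bases inside the annotated gene, with those of MVK and DHCR7 wholly inside it, 118 bases for FDPS, 50 for LSS and 0 for IDI1. Capitals mark matches on either strand to the CCAAT box (CCAAT, bound by NF-Y) and the GC box (GGGCGG, bound by Sp1 family factors). They also mark matches to a pattern of the sterol regulatory element (TCACNCNAC, with N any base), which SREBP binds. MVK lies at chr12:109573544-109573793, plus strand, IDI1 at chr10:1049120-1049369, minus strand, FDPS at chr1:155308616-155308865, plus strand, and LSS at chr21:46228775-46229024, minus strand.
MVK: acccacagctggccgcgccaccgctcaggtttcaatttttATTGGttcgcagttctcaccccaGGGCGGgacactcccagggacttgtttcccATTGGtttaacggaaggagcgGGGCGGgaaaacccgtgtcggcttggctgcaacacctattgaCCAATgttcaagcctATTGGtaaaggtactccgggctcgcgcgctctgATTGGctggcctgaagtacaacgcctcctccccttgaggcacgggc
IDI1: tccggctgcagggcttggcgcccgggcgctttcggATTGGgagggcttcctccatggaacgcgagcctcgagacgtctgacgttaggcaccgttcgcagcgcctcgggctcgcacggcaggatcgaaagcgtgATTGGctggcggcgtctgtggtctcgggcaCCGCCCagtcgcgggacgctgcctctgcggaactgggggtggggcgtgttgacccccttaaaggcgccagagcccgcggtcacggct
FDPS: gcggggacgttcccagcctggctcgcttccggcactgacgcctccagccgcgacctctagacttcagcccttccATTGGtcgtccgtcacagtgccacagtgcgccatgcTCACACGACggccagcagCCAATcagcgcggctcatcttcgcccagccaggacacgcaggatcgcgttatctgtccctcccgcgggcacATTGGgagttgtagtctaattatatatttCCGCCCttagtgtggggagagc
LSS: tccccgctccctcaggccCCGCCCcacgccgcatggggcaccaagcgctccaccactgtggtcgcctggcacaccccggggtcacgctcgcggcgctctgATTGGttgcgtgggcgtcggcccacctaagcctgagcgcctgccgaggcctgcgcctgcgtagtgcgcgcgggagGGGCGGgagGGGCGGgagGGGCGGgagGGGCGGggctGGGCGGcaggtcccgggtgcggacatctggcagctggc
MVK held 5 CCAAT boxes and 2 GC boxes, and LSS 1 CCAAT box and 6 GC boxes. FDPS was the only enzyme of the 7 with a match to the sterol pattern, at positions -140 to -132 from the start of its canonical transcript. A missing match to this pattern does not show that a promoter lacks a sterol regulatory element.

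All 7 promoters held a CCAAT box and all 7 a GC box, where 32% and 42.6% of 35116 RefSeq promoters of the same length did. At least 2 CCAAT boxes stood in 6 of 7, against 9.53% of all promoters. The sterol pattern was found in 1 of 7 against 2.02%, and the E-box CACGTG in 0 of 7 against 6.34%. No 2 different motifs overlapped. The motifs were written down with these sequences in view, so the shares are a description. HMGCS1, MVD and DHCR7, not printed, held 2, 3 and 2 CCAAT boxes and 2, 1 and 4 GC boxes. FDPS with 3 CCAAT boxes and HMGCS1 with 2 passed the test in neither fraction, while MVD with 3 and DHCR7 with 2 each passed in 1. FDFT1 and SQLE, which also passed in neither, had no promoter sequence here. Whether the layout goes with the response was not tested.

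**Figure D1:**
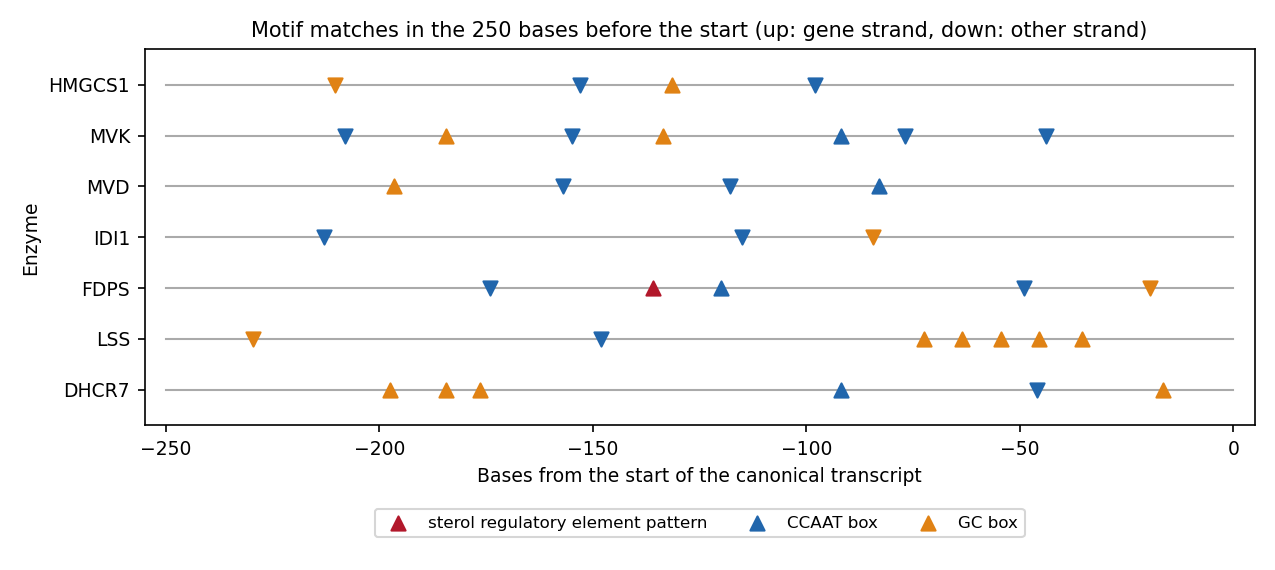
Positions of motif matches in the 250 bases before the start of the canonical transcript of 7 enzymes, in bases from that start, with triangles pointing up for matches on the strand of the gene and down for the other strand. MVK carries 5 CCAAT boxes and LSS 6 GC boxes, and the single match to the sterol pattern lies in FDPS.

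Whole-cell RNA asked which transcripts changed in total abundance. No enzyme passed adjustment, as no gene of the table did (0% of 44682 called, smallest Benjamini-Hochberg adjusted p 0.642). Of the 9, 8 had a negative value in the authors' deposited table with its sign turned, as did 31449 of all 44682 genes, genes without reads included, and 7489 of the 14099 genes shared with the other table. The sign was turned to run with the fractions, so a direction shared with them is not separate evidence. HMGCS1 had the lowest log2 fold change there, -1.09 (unadjusted p = 0.0588), followed by IDI1 at -0.97 (unadjusted p = 0.256), both from the authors' deposited table. According to the authors' deposited table, LSS, at -0.77, was the 1 enzyme with an unadjusted p below 0.05 (0.0444), where 1.33% of all genes were lower at that threshold. MVK stood at -0.61 and MVD at -0.51 in the authors' deposited table, with unadjusted p-values of 0.371 and 0.461. SQLE stood at -0.31, FDFT1 at -0.03, FDPS at -0.02 and DHCR7 at 0.09 in the authors' deposited table, with unadjusted p-values from 0.385 to 0.961. The median over the 9 was -0.51, and that of the 14099 genes shared with the other table -0.04. Rows named LSS_1 and FDFT1_1, numbered copies of these symbols, stood at -0.71 and -0.10 in the authors' deposited table and are not counted.

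Cytoplasmic RNA put the same question to the lysate. MVK, IDI1, LSS and DHCR7 fell, and all 9 enzymes had a negative value. As given in the authors' deposited table, MVK, mevalonate kinase, was lowest, with a log2 fold change of -1.23 and an SE of 0.18 (adjusted p = 3.96e-10), or 0.428 of the vehicle level. Its rank was 36 from the lowest of 15747 genes. In the authors' deposited table, LSS stood at -1.07 (SE 0.20, adjusted p = 2.38e-06), or 0.477 of the vehicle level. Per the authors' deposited table, IDI1, the isomerase, stood at -0.63 (SE 0.17, adjusted p = 0.00135) and DHCR7, the last enzyme, at -0.50 (SE 0.18, adjusted p = 0.0187). MVD had a value in the authors' deposited table as low as that of IDI1, -0.64, but with an SE of 0.35 it did not pass (adjusted p = 0.0685). That SE is the widest of the 9, and its unshrunken value was -0.88 with a 95% interval from -1.48 to -0.29. The 4 calls among 9 stand beside 1.95% of all genes called lower in cytoplasm.

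HMGCS1, FDPS, FDFT1 and SQLE were not called in cytoplasm. Their values in the authors' deposited table lay close together, from -0.21 for FDPS (SE 0.21) to -0.19 for HMGCS1 (SE 0.22), with adjusted p-values from 0.35 to 0.453. Unshrunken, they ranged from -0.43 for HMGCS1 to -0.29 for FDFT1. Their 95% intervals ran from -0.96 to 0.10 for HMGCS1, -0.84 to 0.06 for FDPS, -0.59 to 0.02 for FDFT1 and -0.78 to 0.06 for SQLE. A fall as large as that of DHCR7 as deposited is inside all 4 intervals, so these data do not show that the 4 mRNAs kept their level. In the authors' deposited table, the cytoplasmic median over the 9 enzymes was -0.50, against -0.00 over all genes.

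**Figure D2:**
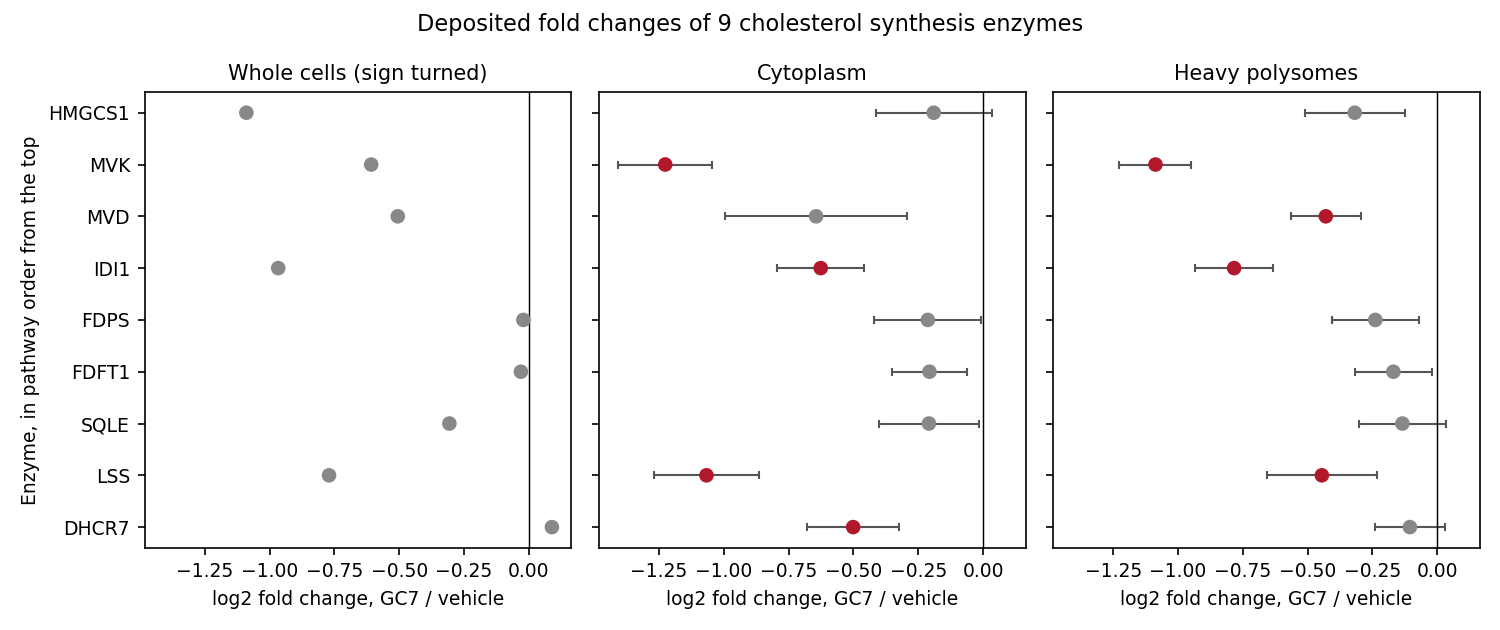
Deposited log2 fold changes of the 9 enzymes in pathway order from the top, for whole cells (sign turned, no SE deposited), cytoplasm and heavy polysomes, with bars of 1 SE and red points for an adjusted p under 0.05. MVK, IDI1 and LSS are red in both fractions, DHCR7 in cytoplasm and MVD in polysomes, and FDPS, FDFT1 and SQLE lie between -0.24 and -0.13 in both fractions.

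Polysomal RNA asked which mRNAs changed on heavy polysomes, where an mRNA carries several ribosomes. Whether those ribosomes were elongating was not measured. MVK, MVD, IDI1 and LSS fell there, and again all 9 values were negative. As listed in the authors' deposited table, MVK stood at -1.09 (SE 0.14, adjusted p = 1.44e-13), or 0.471 of the vehicle level. By the authors' deposited table, IDI1 stood at -0.78 (SE 0.15, adjusted p = 2.03e-06) and MVD at -0.43 (SE 0.14, adjusted p = 0.00544). According to the authors' deposited table, LSS passed narrowly, at -0.45 (SE 0.21, adjusted p = 0.0437). For MVD the value was smaller in size than in cytoplasm and its SE smaller still, and the difference between the fractions did not pass. The 4 calls stand beside 5.48% of all genes called lower in polysomes. MVK, IDI1 and LSS were lower in both fractions, as were 1.23% of all genes.

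By the authors' deposited table, HMGCS1 had a polysomal value of -0.32 (SE 0.19, adjusted p = 0.124) and FDPS of -0.24 (SE 0.17, adjusted p = 0.219). FDFT1 stood at -0.17, SQLE at -0.13 and DHCR7 at -0.11 in the authors' deposited table, with adjusted p-values of 0.388, 0.53 and 0.624. DHCR7, which fell in cytoplasm, had the value nearest to 0 of the 9, with an unshrunken 95% interval from -0.48 to 0.15. As given in the authors' deposited table, the polysomal median over the 9 was -0.32, against -0.00 over all genes. Ordered by unshrunken value, MVK (-1.12, interval -1.39 to -0.85) and IDI1 (-0.83, interval -1.12 to -0.54) came first, and the intervals of each pair of neighbours in the order of the 9 overlapped.

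Whether ribosome loading moved apart from abundance was tested by subtracting the unshrunken cytoplasmic log2 fold change from the polysomal one; a normal test was applied to the difference and adjusted (Benjamini-Hochberg) over 15669 genes. No enzyme passed, nor did any gene of the table (0% called), while 335 genes had an unadjusted p under 0.05 (1.09% of all higher on polysomes and 1.05% lower). Of the 9 differences 7 were positive, where 7987 of 15669 were among all genes. LSS had the largest, 0.56 (SE 0.28, 95% interval 0.01 to 1.12). By the normal test on unshrunken values and SEs its unadjusted p was 0.0453 and its adjusted p 0.9996. DHCR7 came next at 0.43 (SE 0.23, interval -0.03 to 0.89), then MVD at 0.40 (SE 0.33, interval -0.25 to 1.04). For MVK the difference was 0.16 (interval -0.28 to 0.60), and for IDI1 it was -0.14 (interval -0.56 to 0.29). HMGCS1, FDPS, FDFT1 and SQLE lay between -0.01 and 0.12. The errors of both fractions were taken as independent, although both came from the same kind of lysate. In all, 2.14% of tested genes had an unadjusted p under 0.05, fewer than that threshold gives where nothing changed. The test as run was thus cautious, and the absence of calls does not show that loading kept step with abundance. With an error correlation of 0.5 the unadjusted p was 0.00465 for LSS and 0.00966 for DHCR7, and the adjusted p by the same normal test 0.312 and 0.371. At that correlation 1355 of the 15669 genes had an unadjusted p under 0.05.

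**Figure D3:**
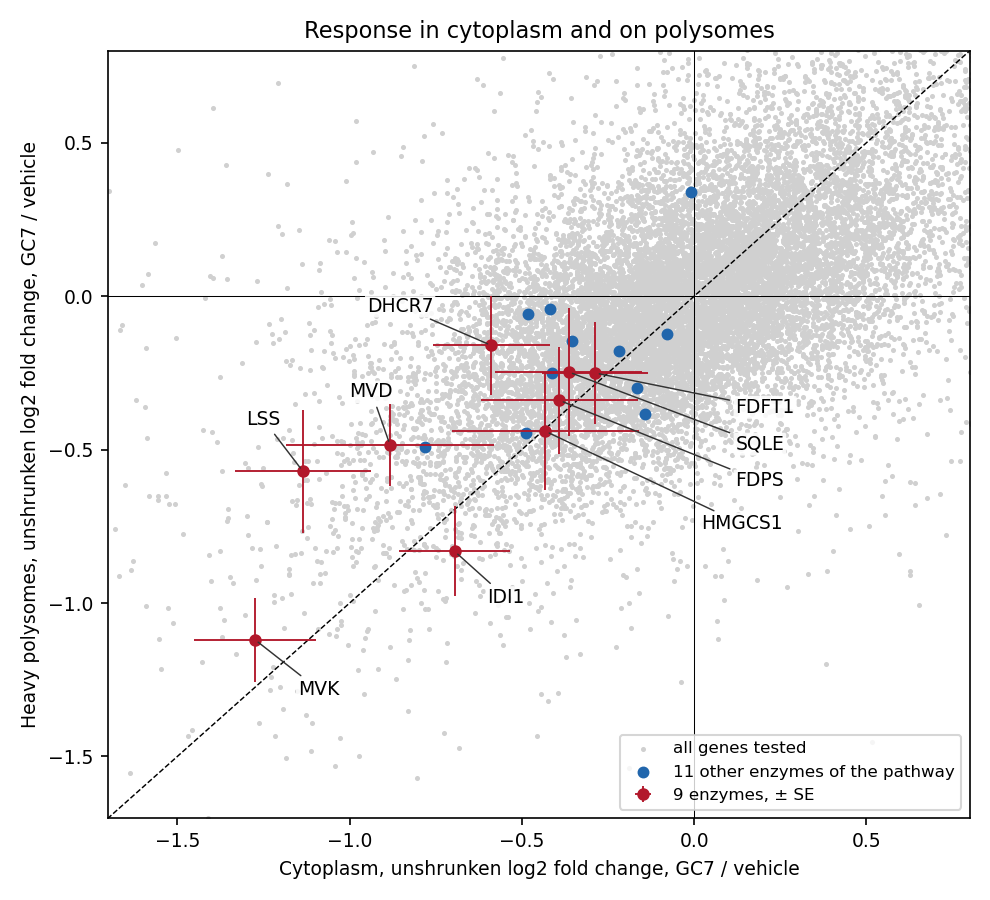
Unshrunken log2 fold changes in polysomes against cytoplasm, with the 9 enzymes in red (bars of 1 SE), 11 other enzymes of the pathway in blue and all genes tested in grey, cropped to the range of the axes, and a dashed line of equal change. The 9 enzymes lie in the lower left quadrant, MVK and IDI1 near the line and LSS, MVD and DHCR7 above it.

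The enzymes also differed in how much of each mRNA sat on heavy polysomes, a grouping noticed after the values were seen. As log2 of the mean normalized count in polysomes over that in cytoplasm, over both treatments, the median gene stood at 0.50. That median is set by the separate normalization of the fractions, and only distances from it carry meaning. HMGCS1, MVK, MVD, IDI1, FDPS and FDFT1 lay 0.02 to 0.23 above it, at percentiles 51.5 to 68.6 of all genes. SQLE, LSS and DHCR7, the last 3 enzymes of the set, stood at -0.55, -0.43 and -0.34 from it, at percentiles 15.9, 20.7 and 25.7. No error can be given for these ratios. SQLE, LSS and DHCR7 act at the endoplasmic reticulum membrane, as does FDFT1, which stood at the 57.0 percentile. Among the 11 other enzymes of the pathway examined 7 were below the median of all genes.

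**Figure D4:**
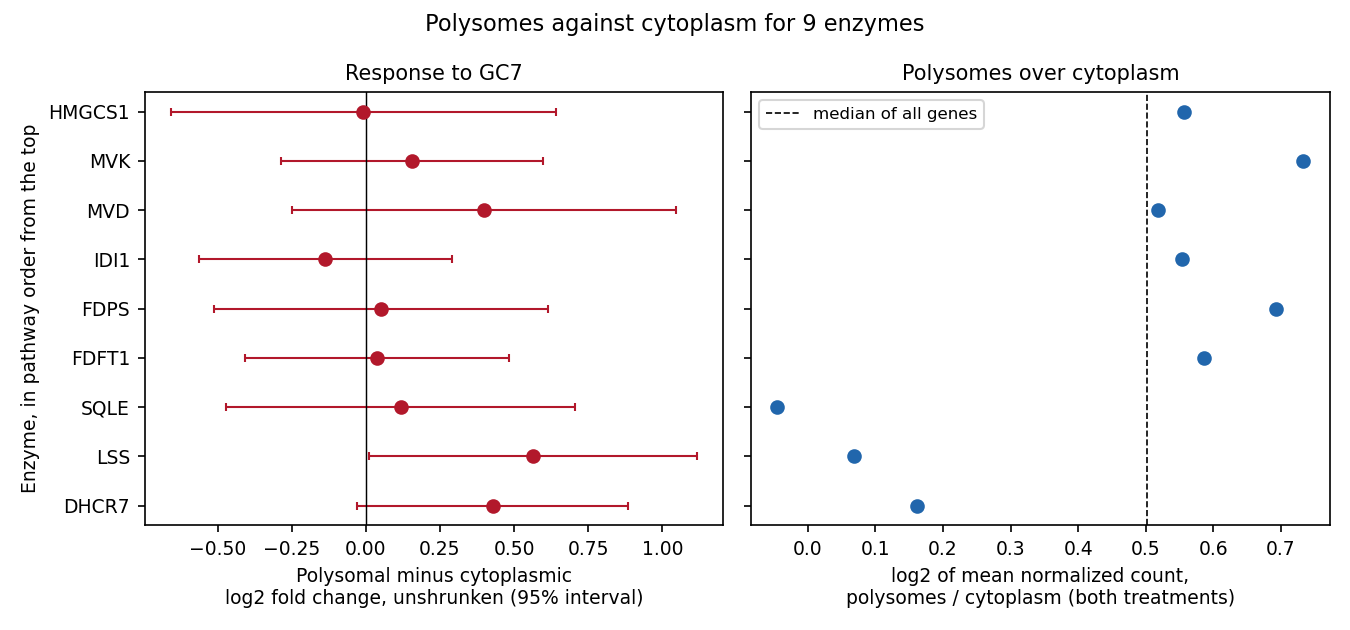
Left, polysomal minus cytoplasmic log2 fold change with GC7 for the 9 enzymes, unshrunken, with 95% intervals; right, log2 ratio of mean normalized counts in polysomes over cytoplasm, over both treatments, with the median of all genes as a dashed line. The interval of LSS alone lies above 0, from 0.01, and SQLE, LSS and DHCR7 stand apart on the right, at -0.55, -0.43 and -0.34 from the line.

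Levels were compared per length, as mean normalized count of the authors' deposited table per kilobase of the GENCODE canonical transcript. In cytoplasm FDPS was the most abundant at 4643 per kilobase, at percentile 96.1 of all genes, followed by FDFT1 at 1680 and DHCR7 at 1348. MVD stood at 664 and IDI1 at 518 per kilobase. SQLE (263), MVK (232), HMGCS1 (191) and LSS (163) were the least abundant. FDPS and FDFT1, on either side of the branch point at farnesyl diphosphate, thus had the highest levels in cytoplasm and on polysomes (7503 and 2520 per kilobase) and no call. MVK and LSS, with the lowest cytoplasmic fold changes, were among the 4 least abundant. So were SQLE and HMGCS1, which had no call, while DHCR7, at 1348, was called in cytoplasm. A link between level and response was not tested. All 9 passed a minimum mean of 100 in both fractions.

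Hypusinated eIF5A is known to help ribosomes past difficult stretches such as consecutive prolines. None of the 9 coding sequences held 3 proline codons in a row, where 3386 of 12901 protein-coding genes of the table did (26.2%). MVK, MVD, IDI1, FDPS, SQLE, LSS and DHCR7 had at most 2 in a row, and HMGCS1 and FDFT1 only single ones. Coding lengths ran from 852 bases for IDI1 to 2196 for LSS, around a median of 1398 over those genes. The GC content of the coding sequence ran from 42.6% in HMGCS1 to 64.8% in MVD.

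MVK (chromosome 12, 109573255 to 109598125, GRCh38, plus strand) starts head to head with MMAB, an enzyme of cobalamin metabolism, with outermost annotated starts 325 bases apart and overlapping exons. In the authors' deposited table, MMAB stood at -0.51 (SE 0.17, adjusted p = 0.00607) in polysomes and -0.36 (SE 0.16, adjusted p = 0.0863) in cytoplasm. Whether the authors counted by strand is not given in the sources used here, so reads in the shared exons cannot be assigned with certainty. Per the authors' deposited table, of the other divergent partners with values, NADSYN1 beside DHCR7, WDR37 beside IDI1, MCM3AP-AS1 beside LSS and SNAI3-AS1 beside MVD, none passed in a fraction, with values from -0.21 to 0.07. These partners were chosen by position, and MMAB was singled out after its values were seen.

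The 11 other enzymes of the pathway examined had negative medians of smaller size. In cytoplasm all 11 values of the authors' deposited table were negative around a median of -0.24, and 0 were called. The value nearest to 0 was -0.003, for TM7SF2. On polysomes 10 of 11 were negative with a median of -0.13. The exception, named after its value was seen, was TM7SF2, at 0.28 in the authors' deposited table (SE 0.13, adjusted p = 0.0807). EBP, a sterol isomerase, fell, where 5.48% of all genes were called lower. Its polysomal value in the authors' deposited table was -0.40 (SE 0.17, adjusted p = 0.0395), beside a cytoplasmic one of -0.59 (SE 0.29, adjusted p = 0.0598). For EBP the polysomal minus cytoplasmic difference was 0.29 with a 95% interval from -0.32 to 0.90, so a call in 1 fraction alone does not show a difference between them. Counting both sets, 20 of 20 enzymes were negative in cytoplasm and 19 of 20 on polysomes, where 8075 and 8106 of 15747 genes were.

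Genes around the pathway gave a mixed picture. Of the 12 measured genes of the SREBP machinery and other SREBP2 targets, 2 fell in cytoplasm and 4 on polysomes. Among all genes, 1.95% were called lower in cytoplasm and 5.48% on polysomes. As listed in the authors' deposited table, INSIG1, which retains SREBP in the endoplasmic reticulum and is itself a target, stood at -1.18 (SE 0.15, adjusted p = 2.13e-14) on polysomes and -0.78 (SE 0.27, adjusted p = 0.0107) in cytoplasm. NPC2, a lysosomal cholesterol carrier, stood at -0.70 and -0.61 in the authors' deposited table (adjusted p = 4.12e-05 and 0.00563). STARD4, a sterol transfer protein, and TMEM97 stood at -0.73 and -0.46 on polysomes in the authors' deposited table (adjusted p = 0.000237 and 0.00202). By the authors' deposited table, SREBF2, which encodes SREBP2, was not called, at -0.26 (SE 0.16) in cytoplasm and -0.20 (SE 0.13) on polysomes.

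Of 10 fatty acid genes known as SREBP1 targets, 2 fell in each fraction, beside 1.95% of all genes in cytoplasm and 5.48% on polysomes. According to the authors' deposited table, FADS2 stood at -0.83 (adjusted p = 7.79e-05) in cytoplasm and -0.42 (adjusted p = 0.0409) on polysomes. FASN, fatty acid synthase, fell on polysomes at -0.56 (adjusted p = 0.00645), and SCD, named after its value was seen, in cytoplasm at -0.50 (adjusted p = 0.0167), both from the authors' deposited table. The 12 users of isoprenoids, such as prenyltransferases and enzymes of dolichol and ubiquinone synthesis, had medians of 0.01 in each fraction and 1 call, PGGT1B, higher on polysomes at 0.53 (SE 0.26, adjusted p = 0.0362) by the authors' deposited table, where 5.61% of all genes were called higher. None of 5 liver X receptor targets and receptors was called. The medians of the 9 enzymes, -0.50 and -0.32, were the lowest of these 6 lists in both fractions, which is a description, since the sets were chosen with results of these data known.

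**Figure D5:**
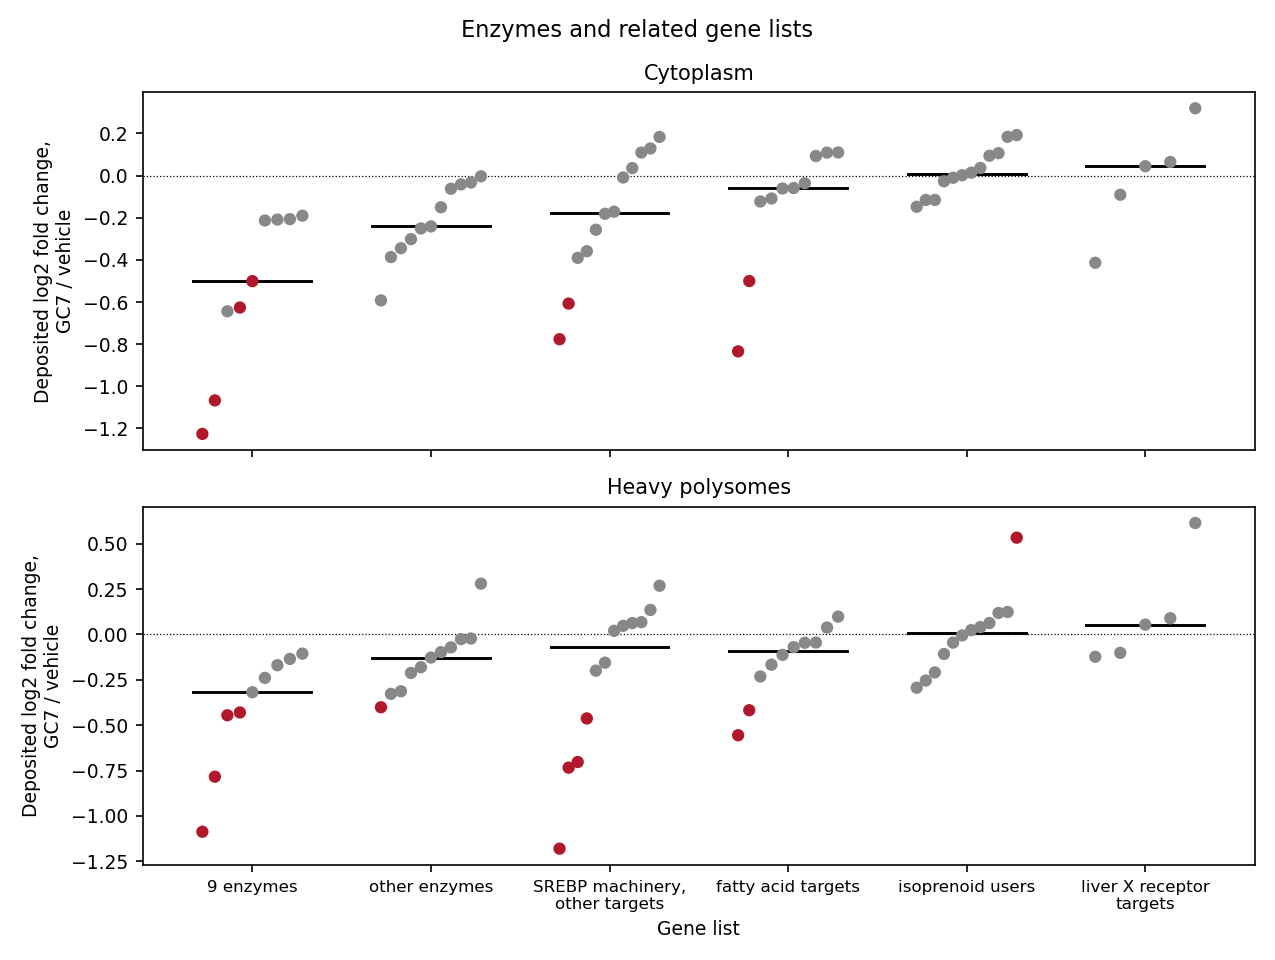
Deposited log2 fold changes of each measured gene in 6 lists, in cytoplasm (top) and heavy polysomes (bottom), with black lines for list medians and red points for an adjusted p under 0.05. The 9 enzymes lie below 0 in both panels with medians of -0.50 and -0.32, while users of isoprenoids centre on 0.01.

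By Euclidean distance over the 3 comparisons, with deposited values for the fractions and the sign of the whole-cell values turned, the 5 of 10593 protein-coding genes nearest to the medians of the 9 enzymes (-0.51, -0.50 and -0.32) were HCN3, RRM2, BANP, CDK1 and TELO2, at distances from 0.026 to 0.064. As given in the authors' deposited table, RRM2, a subunit of ribonucleotide reductase, and CDK1, a mitotic kinase, passed in cytoplasm at -0.53 (adjusted p = 0.0198) and -0.50 (adjusted p = 0.00782). None of the 5 passed on polysomes.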

How the data were processed

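RNA of DU145 cells treated with GC7 or vehicle was sequenced from whole cells, cytoplasm and heavy polysomes, 3 libraries per group, grouped by their titles. GRCh38, STAR 2.7.8a and Salmon 1.4.0 are named in the submitters' processing notes; which tool made the comparisons is not given in the sources used here. Per the file headers, the deposited values are, for whole cells, a log fold change, read as log2, and an unadjusted p-value, and, for the fractions, a mean normalized count (used as a score per gene), a log2 fold change and its SE, p-values before and after adjustment, and a category. No test on counts was possible.

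Benjamini-Hochberg adjustment of the whole-cell p-values ran over 44682 genes. The fractions' adjusted p-values are the authors' own, and 0.05 was the threshold throughout. Their fold changes did not give the deposited p-values, so unshrunken values and SEs were computed under a Cauchy prior fitted to those p-values (natural log scale 0.195 in cytoplasm, 0.205 in polysomes). The recovered z lay within 0.1 of the deposited one in 97.4% of genes in cytoplasm and 99.5% in polysomes; those off by more than 0.5 were dropped. On simulated data with the SEs of 15701 genes, the polysomal minus cytoplasmic test called 28 of 100 genes changed by 1 and 87 of 100 changed by 2 on the log2 scale, and 7 of 15501 unchanged ones. The simulated errors were independent between fractions, and both changes exceeded the largest difference among the enzymes, 0.56 for LSS. These rates thus do not describe changes of the size seen in the enzymes. Intervals are 95%, 1.96 SE.

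Transcript lengths, coding sequences and neighbours come from GENCODE 44 (14189 of 15747 names matched) and promoters from RefSeq. Named genes were all 9 enzymes, SREBF2, and called genes of each list by smallest polysomal adjusted p, then the 5 nearest genes with a mean count of at least 100. One gene of the pathway is not reported here. The enzymes and lists were chosen with earlier results of these data known. Python 3.11.15 with scipy 1.17.1 was used.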

Additional observations from a re-analysis of the deposited data

How the results depend on the processing

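No paired analysis was possible because the deposited tables hold comparisons and no values per library, and for the same reason no replicate could be left out. Of the enzymes, 1 passed in whole cells at an unadjusted p under 0.05 (LSS) and 0 under any adjustment tried. Where the call also required a size above 1 on the log2 scale, as in the authors' category, 2 stayed called in cytoplasm (MVK and LSS) and 1 in polysomes (MVK). At an adjusted p under 0.01, 3 passed in each fraction, without DHCR7 in cytoplasm and LSS in polysomes. Shares of all genes at these stricter settings were not counted, so the counts show only which calls held. Adjustment recomputed over all genes and a mean normalized count of at least 100 left the 4 calls of each fraction as they were. Unshrunken values changed no direction, and since the call uses the deposited adjusted p alone they could not change a call. The polysomal minus cytoplasmic test called 0 of 9 enzymes under 4 alternatives and 0 of 8 with SEs taken from the p-values, where FDPS had no value. Over all genes it called 0 as reported, 1 with shrunken values, 20 with an error correlation of 0.5, and 23 of 12718 with SEs taken from the p-values, an alternative added after seeing the data. For FDPS that difference was -0.026 with shrunken values, and for PGGT1B it was -0.61 unshrunken (SE 0.79), 0.44 shrunken and 0.59 with SEs from the p-values. The cause was not tested. Unknown depth and 3 libraries per group limit the precision.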
